A study of Mus musculus with 4 samples.

Results

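The NRF2 pathway antioxidant genes described here are 10 genes chosen by name: *Nfe2l2*, *Keap1*, *Nqo1*, *Hmox1*, *Gclc*, *Gclm*, *Txnrd1*, *Srxn1*, *Gpx4* and *Prdx1*. All 10 were found by symbol among the 22063 genes listed in the deposited count table, and all 10 passed the filter on low counts. They were followed in TKPTS cells, a mouse renal proximal tubular epithelial cell line that the sample labels call TKPT. Every library came from cells held for 24 h in 1% oxygen and then for 12 h in normal oxygen, a model of ischemia and reperfusion. The control group, labelled Scrambled and wild type (replicates 2 and 3), received a control siRNA, and the group labelled Itgb6-siRNA and *Itgb6* knockdown (replicates 1 and 3) received an siRNA against *Itgb6*, the beta subunit of integrin αvβ6. No library of cells kept in normal oxygen throughout was analysed here, so the levels below are those after reoxygenation and not changes caused by it.

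NRF2, the protein of *Nfe2l2*, is a transcription factor that is made continuously and normally destroyed. KEAP1 binds it and hands it to a ubiquitin ligase built on CUL3, and oxidants or electrophiles that modify cysteines of KEAP1 stop this, so that NRF2 accumulates, pairs with a small MAF protein and binds antioxidant response elements near its target genes. Much of this control acts on the protein, which RNA-sequencing does not measure. In the renal tubule the pathway is known for limiting oxidant injury after ischemia and reperfusion.

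*Nfe2l2* was the 1 member of the 10 whose mRNA differed between the groups by the thresholds of the study, an unadjusted p under 0.05 with a fold change over 1.2. It was 22.8% higher in the Itgb6-siRNA libraries, and 9.57% of all genes tested passed these thresholds in either direction. Without Scrambled replicate 2 the log2 fold change of *Nfe2l2* was 0.22. With trends against GC content and transcript length taken out it was 0.26, and both values lay under a fold change of 1.2. The classical targets *Hmox1*, *Gclm* and *Txnrd1* had estimates between 0.177% and 1.84% above the Scrambled libraries, with 95% intervals that included no change. The targets *Nqo1*, *Gclc* and *Srxn1*, with fewer counts, had estimates of 6%, 0.97% and -2.63%. Their intervals included no change but also reached past a fold change of 1.2. *Prdx1* had an estimate of 11.6% above and *Gpx4* of 7.56% below the Scrambled libraries, and neither reached a fold change of 1.2.

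The libraries held 15435074 to 17220281 counts each, and the same gene differed between replicates of a group by more than sampling noise (chi-square per gene 3.15 in Scrambled and 4 in Itgb6-siRNA). The 13 mitochondrially encoded genes listed took 2.46% and 2.55% of the counts in the Scrambled libraries and 2.96% and 2.91% in the Itgb6-siRNA libraries, so this share was higher in both Itgb6-siRNA libraries, and its part in the results below was not tested. The epithelial markers *Pax8*, *Cdh1*, *Krt8*, *Krt18* and *Epcam* had at least 4682 counts in every library, whereas *Slc34a1*, *Slc5a2* and *Slc22a6*, transporters of the mature proximal tubule, had 0 counts in all 4 libraries. The summed FPKM of the 17 epithelial and tubular markers was lower in both Itgb6-siRNA libraries (1408 and 1396) than in both Scrambled libraries (1494 and 1497), and its part in the results was not tested. Of the macrophage list 2 of 7 markers had 10 or more counts in every library (*Cd68* and *Csf1r*), of the endothelial list 1 of 5 (*Cdh5*), and of the fibroblast list 0 of 6. The summed FPKM of the macrophage list was 92.6 and 100.03 in Scrambled and 93.4 and 84.5 in Itgb6-siRNA. Most of it was *Cd68*, at 85.5 and 93.0 FPKM in Scrambled and 80.8 and 78.8 FPKM in Itgb6-siRNA. *Csf1r* had 7.08 and 7.02 FPKM in Scrambled and 11.8 and 5.56 FPKM in Itgb6-siRNA. Its counts were 449 and 468 against 418 and 365, so the high FPKM of Itgb6-siRNA replicate 1 did not come with more counts. The fibroblast list summed to 0 and 0.124 FPKM in Scrambled and 0.984 and 0.176 FPKM in Itgb6-siRNA replicates 1 and 3. In Itgb6-siRNA replicate 1, *Col1a1* had 22 counts and *Lyz2* of the macrophage list 11, and *Lyz2* had 0 in every other library. In RNA from whole cultures, fewer cells of a type and less RNA per cell cannot be told apart.

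*Itgb6*, the targeted gene, had 285 and 284 counts in Scrambled replicates 2 and 3 and 279 and 260 counts in Itgb6-siRNA replicates 1 and 3. The difference was -0.0051 on the log2 scale, with a 95% interval from -0.27 to 0.26 (adjusted p = 0.991 by edgeR's quasi-likelihood test, Benjamini-Hochberg over 11727 genes). The mRNA therefore did not show the knockdown that the label gives, and every direction below refers to the libraries as labelled. The paper reports that the siRNA lowered integrin αvβ6 protein on western blots of hypoxic TKPTS cells. Its methods name qPCR and western blot as checks of the siRNA. Whether the sequenced cultures were among those checked is not stated. Nothing in the labels says that replicates came from separate cultures, so the p-values measure the spread between these libraries, which may be technical. The study's methods also mention a clustering step used to refine which samples were analysed further, and a choice of libraries by likeness would make that spread smaller. Whether these 4 libraries were chosen so is not stated.

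The DNA that NRF2 and its MAF partner bind is written here as TGACNNNGC, in which N is any base. It is shown because it is a feature shared by targets of NRF2. Genes named as NRF2 targets may be so named partly because they carry it, so its share among the 10 is no independent test. It was searched on both strands of the RefSeq promoter windows of GRCm38.p6, each from 250 bases before to 50 bases after a transcription start. Windows were given for 8 of the 10 genes, and *Hmox1* and *Gclc* were not matched. At least 1 match lay in a window of 5 of these 8 genes, each printed below 5′ to 3′ on the strand that carries the motif, with the motif in capitals and 10 bases on either side.
Nfe2l2: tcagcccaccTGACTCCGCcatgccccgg
Gclm: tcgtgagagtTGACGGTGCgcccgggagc
Txnrd1: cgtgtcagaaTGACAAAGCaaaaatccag
Srxn1: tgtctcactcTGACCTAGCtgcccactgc
Prdx1: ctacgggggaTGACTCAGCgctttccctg

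The match of *Nfe2l2* lay 240 bases upstream of its start (chr2:75704885-75704913, minus strand), that of *Gclm* 134 bases upstream (chr3:122245413-122245441, minus strand) and that of *Prdx1* 133 bases upstream (chr4:116685456-116685484, minus strand). *Txnrd1* had 1 match in the windows of its several starts, 92 bases upstream of a start (chr10:82859104-82859132, minus strand), and that of *Srxn1* was at base 29 downstream of the start (chr2:152105542-152105570, minus strand). The 9 bases of *Prdx1* also contain TGACTCA, the sequence bound by AP-1 factors, and those of the other 4 genes do not. A match was present for 62.5% of the members with a window, for 16.5% of the 79 other pathway genes with a window, and for 14.0% of all 27025 genes with a window. Of the genes tested that had a window, 17.1% had a match. The members have between 1 and 4 windows each, and a match in these letters is a description and not proof of binding. Among the genes tested for a difference between the groups, 1597 had a match, of which 9.64% passed the study's thresholds with a median log2 fold change of 0.0074, and 7739 had windows without a match, of which 9.46% passed with a median of -0.0019. Genes with the motif near their start had nearly the same share of calls as genes without it. A match was about as common in the other pathway genes (16.5%) as in the genes tested (17.1%). It does not by itself mark a target of NRF2, so the comparison cannot show how such targets changed.

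The genes lie apart in the genome, by GENCODE vM21 on GRCm38, a reference that is not known to be the one the authors counted against. It places *Keap1* on chromosome 9 from 21229730 to 21239361 (minus strand), *Nqo1* on chromosome 8 from 107388225 to 107403206 (minus strand) and *Hmox1* on chromosome 8 from 75093621 to 75100589 (plus strand). It has *Gclc* on chromosome 9 from 77754535 to 77794485 (plus strand), *Gclm* on chromosome 3 from 122245557 to 122270732 (plus strand) and *Txnrd1* on chromosome 10 from 82833951 to 82897712 (plus strand). The remaining members beside *Nfe2l2*, given with its values, are *Srxn1* on chromosome 2 from 152105516 to 152111376 (plus strand), *Prdx1* on chromosome 4 from 116685544 to 116700822 (plus strand) and *Gpx4* on chromosome 10 from 80047166 to 80056439 (plus strand).

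Levels were compared between genes on the deposited FPKM scale, which corrects for gene length. The 10 genes spanned a 159-fold range. *Prdx1*, which encodes a peroxiredoxin that reduces hydrogen peroxide, had the highest level of the members, 573 to 620 FPKM over the 4 libraries, and stood at rank 142 of the 22063 genes listed. *Gpx4*, the selenoenzyme that reduces lipid hydroperoxides in membranes, followed at 284 to 316 FPKM. Together these 2 genes made up 49.1% and 24.6% of the summed mean FPKM of the members.

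*Hmox1*, which encodes the inducible enzyme that breaks down heme, had 142 to 145 FPKM and rank 551. The next were *Gclm*, the modifier subunit of glutamate-cysteine ligase, at 76.9 to 81.2 FPKM and *Txnrd1*, the cytosolic thioredoxin reductase, at 53.0 to 55.0 FPKM. *Nfe2l2* itself was at 19.8 to 26.0 FPKM, against a median of 9.07 FPKM over the genes tested. From *Prdx1* down to *Gclc*, no neighbours in this order overlapped in their 4 libraries.

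The lowest 4 members lay close together. *Gclc*, the catalytic subunit of glutamate-cysteine ligase, had 5.58 to 6.72 FPKM, *Srxn1*, the sulfiredoxin that restores overoxidized peroxiredoxins, 4.50 to 5.62 FPKM, and *Keap1* 4.25 to 4.90 FPKM. *Nqo1*, a quinone reductase often used to report NRF2 activity, had 3.30 to 4.21 FPKM, the lowest level of the members. The ranges of *Gclc* and *Srxn1* overlapped, as did those of *Srxn1* and *Keap1*, and those of *Keap1* and *Nqo1* were set apart by less than the spread within either gene. The subunits of glutamate-cysteine ligase therefore differed in level, with the FPKM of *Gclm* above that of *Gclc* in every library.

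**Figure D1:**
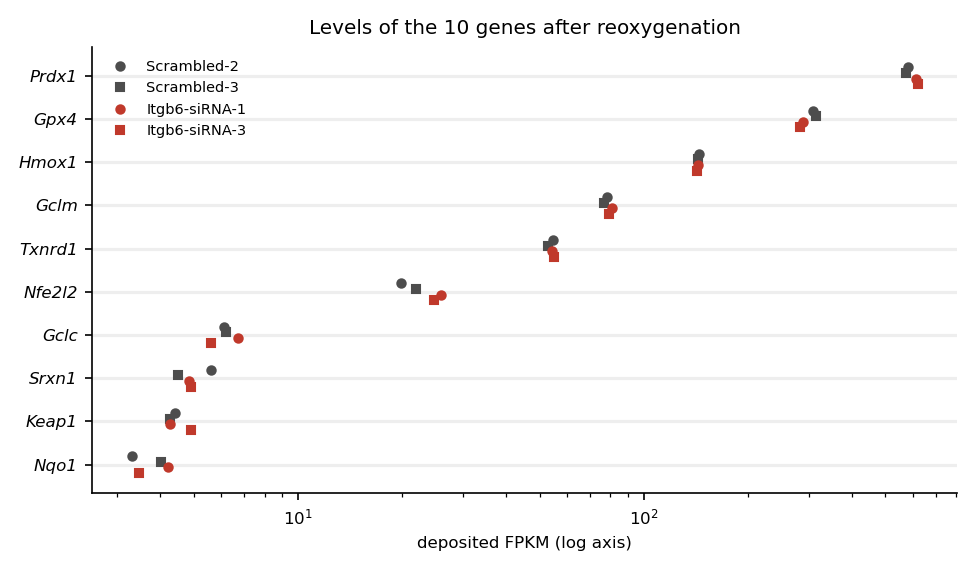
Deposited FPKM of each gene on a log axis, with 1 point per library (grey: Scrambled replicates 2 and 3; red: Itgb6-siRNA replicates 1 and 3; circles and squares tell the libraries of a group apart). The genes run from *Prdx1* at 573 to 620 FPKM down to *Nqo1* at 3.30 to 4.21 FPKM, and the libraries of a gene lie much closer together than most neighbouring genes do.

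For the comparison of the groups, counts were normalized to library size (CPM, with TMM factors) and tested with edgeR's quasi-likelihood test across 11727 genes, and fold changes are those of Itgb6-siRNA over Scrambled. Of all genes tested, 9.57% passed the study's thresholds, 4.37% as higher and 5.20% as lower, and of the 10 members 1 passed as higher and 0 as lower. At an unadjusted p under 0.05 without a fold threshold, 2 members were higher and 1 was lower, beside 8.80% and 9.62% of all genes tested. By the study's thresholds DESeq2 also called 1 member higher and 0 lower. At an adjusted p under 0.05 (Benjamini-Hochberg), 4.62% of all genes passed, 2.11% as higher and 2.52% as lower, against 1 member as higher and 0 as lower. With 10 members, a count of 1 is near the 9.57% that passed the study's thresholds. At the adjusted threshold it is above the share over all genes, but it rests on *Nfe2l2* alone. The median log2 fold change of the members was 0.023, with 8 estimates above 0 and 2 below, beside 0.0002 over all genes tested. In 3 of the 10 members, *Nfe2l2*, *Prdx1* and *Gpx4*, both Itgb6-siRNA libraries lay above, or both below, both Scrambled libraries, beside 49.2% of the genes tested.

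**Figure D2:**
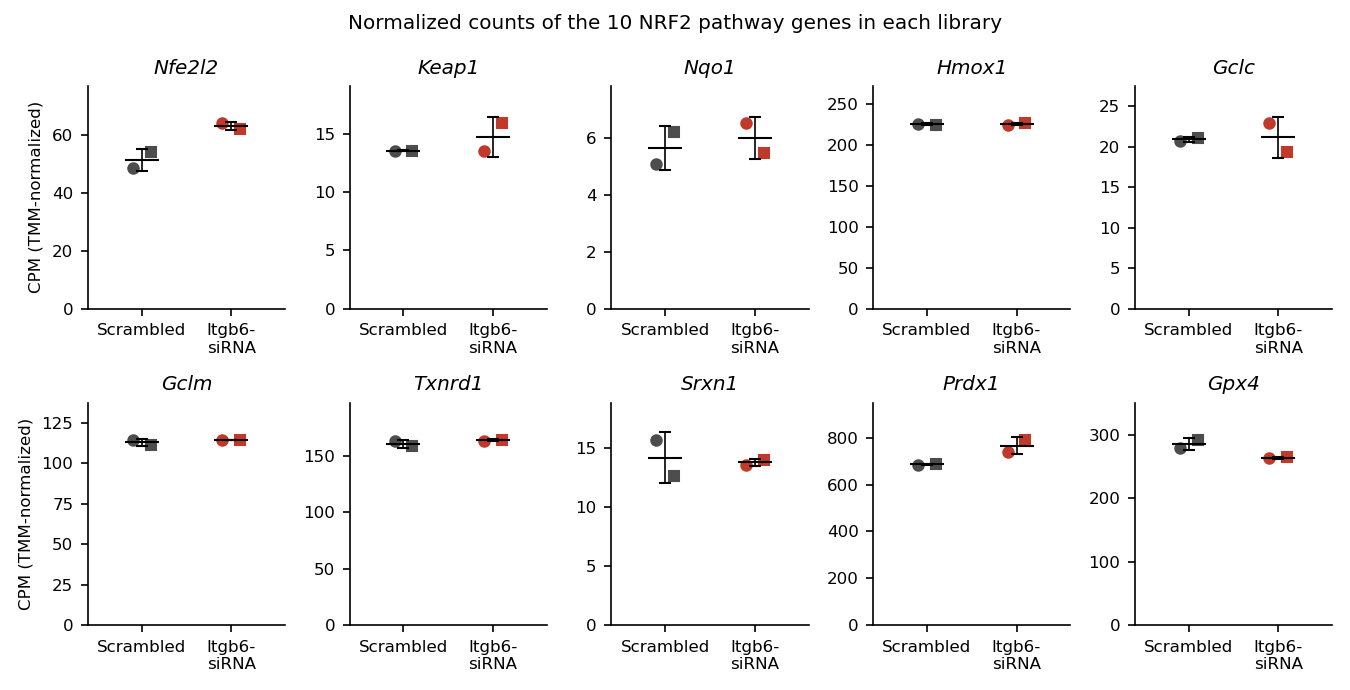
TMM-normalized CPM of each gene, with 1 point per library (circles: Scrambled replicate 2 and Itgb6-siRNA replicate 1; squares: replicate 3 of either group), and the mean and SD of each group (n = 2) in black; every axis starts at 0. The groups are set apart in *Nfe2l2* (48.7 and 54.1 against 64.2 and 62.2 CPM), *Prdx1* and *Gpx4*, and overlap in the other 7 genes. Over all genes tested, the groups did not overlap in 49.2%.

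Of the regulators, *Nfe2l2* (ENSMUSG00000015839; chromosome 2 from 75675513 to 75704641, minus strand, in GENCODE vM21 on GRCm38) had 48.7 and 54.1 CPM in Scrambled replicates 2 and 3 and 64.2 and 62.2 CPM in Itgb6-siRNA replicates 1 and 3. Both Itgb6-siRNA libraries were above both Scrambled libraries, and the 2 Scrambled libraries differed more from each other than the 2 Itgb6-siRNA libraries did. The means were 51.4 ± 3.85 CPM and 63.2 ± 1.38 CPM (SD, n = 2), and the counts were 794 and 935 against 993 and 1024. On the log2 scale the difference was 0.30 (standard error 0.08, 95% interval from 0.13 to 0.46, edgeR adjusted p = 0.0313). The call rested on Scrambled replicate 2, the lowest library: without it the log2 fold change was 0.22 (edgeR adjusted p = 0.506), and with the trends against GC content and transcript length taken out it was 0.26 (adjusted p = 0.0933), both under a fold change of 1.2. The adjusted p was also over 0.05 without Scrambled replicate 3 (0.0730) and without Itgb6-siRNA replicate 1 (0.0765), each by edgeR.

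*Keap1*, the adaptor that presents NRF2 for degradation, had 13.6 and 13.5 CPM in Scrambled and 13.5 and 15.9 CPM in Itgb6-siRNA. Itgb6-siRNA replicate 3 was the high library, and replicate 1 lay within the Scrambled values. Its log2 fold change of 0.12 had an interval from -0.17 to 0.41 (adjusted p = 0.704, edgeR). The value was 0.0006 without Itgb6-siRNA replicate 3, 0.23 without Itgb6-siRNA replicate 1 and 0.25 with GC and length trends removed, and none of these passed the thresholds. Its exons overlap those of *Gm16754* on the opposite strand, whose reads cannot be told from its own in these libraries without strand information.

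Of the enzymes most used as readouts of NRF2, *Hmox1* had 225.7 and 224.3 CPM in Scrambled and 224.5 and 226.3 CPM in Itgb6-siRNA. The 4 libraries were nearly level, and the groups overlapped. The difference was 0.0026 on the log2 scale with an interval from -0.11 to 0.11 (adjusted p = 0.989, edgeR), that is, from 0.927 to 1.08 times the Scrambled level. This was among the narrowest intervals of the members, with 3475 to 3873 counts per library.

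*Nqo1* had 5.09 and 6.20 CPM in Scrambled and 6.53 and 5.47 CPM in Itgb6-siRNA, overlapping groups with 83 to 107 counts per library. Its log2 fold change of 0.08 had the widest interval of the members, from -0.36 to 0.53 (adjusted p = 0.884, edgeR). The interval ran from 0.780 to 1.44 times the Scrambled level.

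Of the glutathione synthesis genes, *Gclm* had 114.6 and 111.5 CPM in Scrambled and 114.5 and 114.6 CPM in Itgb6-siRNA. Its log2 fold change was 0.02 with an interval from -0.11 to 0.15 (adjusted p = 0.913, edgeR), and its exons overlap those of *Gm6061* and *Gm17494*. *Gclc* had 20.7 and 21.1 CPM in Scrambled and 22.9 and 19.4 CPM in Itgb6-siRNA, so that the Itgb6-siRNA libraries lay on either side of both Scrambled libraries. Its log2 fold change was 0.01 with an interval from -0.24 to 0.27 (adjusted p = 0.970, edgeR). Neither subunit of the rate-limiting enzyme of glutathione synthesis differed by more than the spread between replicates.

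Of the thioredoxin system, *Txnrd1* had 163.1 and 158.1 CPM in Scrambled and 162.8 and 164.2 CPM in Itgb6-siRNA, with a log2 fold change of 0.03 and an interval from -0.10 to 0.15 (adjusted p = 0.864, edgeR). *Srxn1* had 15.7 and 12.6 CPM in Scrambled and 13.6 and 14.0 CPM in Itgb6-siRNA, with a log2 fold change of -0.04 and an interval from -0.33 to 0.26 (adjusted p = 0.924, edgeR). The Scrambled libraries lay on either side of the Itgb6-siRNA libraries in *Srxn1*, and the groups overlapped in *Txnrd1*.

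*Prdx1* had 685.8 and 687.0 CPM in Scrambled and 739.8 and 792.3 CPM in Itgb6-siRNA. Both Itgb6-siRNA libraries were above both Scrambled libraries, which were nearly equal, and the Itgb6-siRNA libraries differed from each other by about as much as replicate 1 did from the Scrambled libraries. This was a log2 difference of 0.16 (standard error 0.05, interval from 0.06 to 0.26, edgeR adjusted p = 0.0507), so *Prdx1* missed both the fold threshold of 1.2 and the adjusted threshold. The adjusted p was under 0.05 with DESeq2 (0.0326), with RLE factors (0.0463) and with other filters on low counts. With 1 library left out the log2 difference ranged from 0.11 to 0.21, and the edgeR adjusted p was 0.493 without Scrambled replicate 2, 0.261 without Scrambled replicate 3, 0.176 without Itgb6-siRNA replicate 3 and 0.000198 without Itgb6-siRNA replicate 1. With GC and length trends removed the log2 fold change was 0.07 (adjusted p = 0.426, edgeR), and the transcript has a GC content of 42.3%, against a median of 49.8% over the genes tested.

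*Gpx4* had 279.2 and 293.1 CPM in Scrambled and 263.5 and 265.6 CPM in Itgb6-siRNA. Both Itgb6-siRNA libraries were below both Scrambled libraries. This was a log2 difference of -0.11 (standard error 0.05, interval from -0.22 to -0.0040, edgeR adjusted p = 0.251), past the unadjusted threshold but under a fold change of 1.2. It missed the unadjusted threshold too with DESeq2 and without Scrambled replicate 2, Scrambled replicate 3 or Itgb6-siRNA replicate 1, and without Scrambled replicate 3 the value was -0.07. Its transcript has the highest GC content of the members, 60.2%, and with GC and length trends removed the log2 fold change was -0.02 (adjusted p = 0.931, edgeR). Over all genes tested, log2 fold changes fell with GC content (Spearman's rho of -0.364 over 11709 genes, which are no independent replicates).

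**Figure D3:**
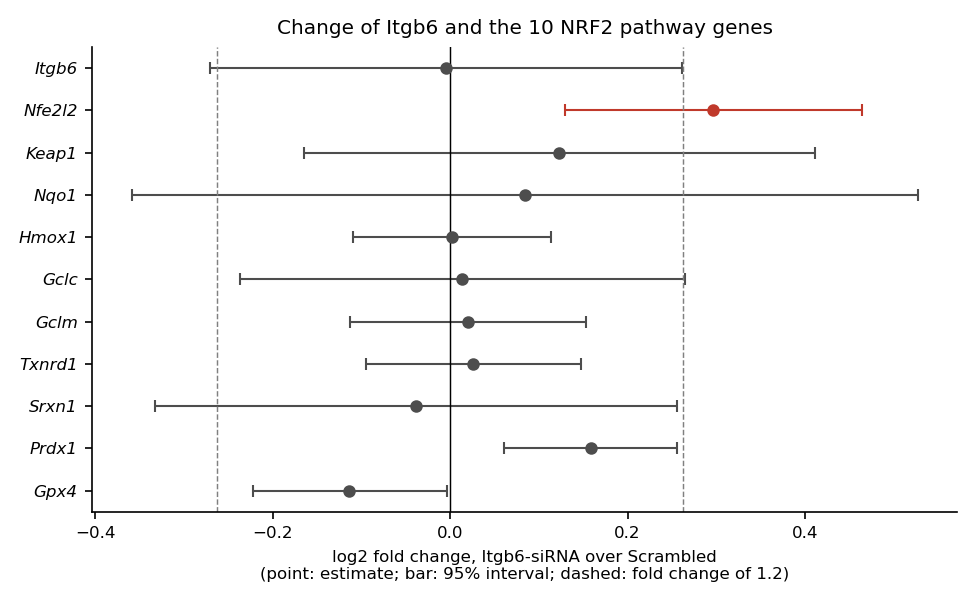
Log2 fold change of *Itgb6* and of each of the 10 genes, Itgb6-siRNA over Scrambled, as the edgeR estimate (point) with its 95% interval (bar); dashed lines mark a fold change of 1.2 in either direction. *Nfe2l2* at 0.30 is the 1 gene past the study's thresholds (red), which 9.57% of all genes tested passed. The intervals of 7 of the 10 members include 0.

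The size of a difference that these libraries could have missed varied with the counts. All 10 intervals lay within a fold change of 1.5 in either direction, and 5 lay within 1.2: those of *Hmox1*, *Gclm*, *Txnrd1*, *Prdx1* and *Gpx4*, which had at least 1773 counts in every library. The standard error was under 0.1 on the log2 scale for 6 members. The other 4 members, *Keap1*, *Nqo1*, *Gclc* and *Srxn1*, had 83 to 365 counts per library and intervals that reached past a fold change of 1.2.

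**Figure D4:**
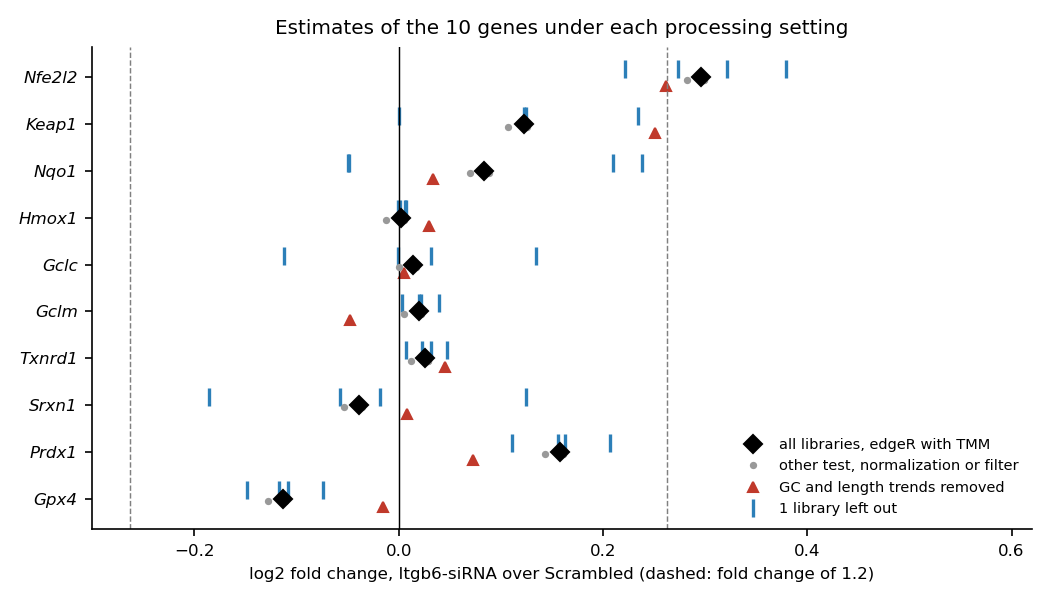
Log2 fold change of each gene under every setting tried: with all libraries and TMM (diamonds), with another test, normalization or filter (dots), with GC and length trends removed (triangles) and with 1 library left out (vertical ticks). *Nfe2l2* stayed above 0 throughout, from 0.22 to 0.38, *Gpx4* moved from -0.11 to -0.02 and *Prdx1* from 0.16 to 0.07 with the trends removed, and *Nqo1*, *Gclc* and *Srxn1* changed sign with the library left out.

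A wider list of 91 NRF2 partners, targets and other antioxidant genes was examined by role, of which 84 were tested. Of these, 5 passed the study's thresholds as higher and 1 as lower, 7.14% in all beside 9.57% of all genes tested. The median log2 fold change was 0.014, with 49 estimates above 0 and 35 below. None of these 6 genes had an adjusted p under 0.05 with edgeR, and DESeq2 called 3 higher and 0 lower. At an unadjusted p under 0.05 without a fold threshold, edgeR gave 9 higher and 3 lower of the 84, beside 8.80% and 9.62% of all genes tested. For each role the gene with the highest mean FPKM is also named below. Each role holds few genes, and its count of calls is to be read beside the 9.57% over all genes tested.

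Among the partners and the degradation machinery, 0 of 10 genes were called. *Sqstm1*, whose protein p62 sequesters KEAP1, had 768.9 and 766.6 CPM in Scrambled and 788.5 and 779.3 CPM in Itgb6-siRNA, a log2 difference of 0.03 (edgeR adjusted p = 0.784). *Nfe2l1*, which encodes the related factor NRF1, had 243.1 and 210.8 CPM in Scrambled and 191.9 and 197.6 CPM in Itgb6-siRNA. Both Itgb6-siRNA libraries were below both Scrambled libraries, in the direction opposite to *Nfe2l2*. The log2 fold change was -0.22 with an interval from -0.35 to -0.10 (adjusted p = 0.0324, edgeR), which passed the adjusted threshold without reaching a fold change of 1.2; *Nfe2l1* is named here after its values were seen. Without Scrambled replicate 2, its highest library, the value was -0.11 (edgeR adjusted p = 0.685), and with GC and length trends removed -0.14 (edgeR adjusted p = 0.276). Without Scrambled replicate 3 it was -0.32 (edgeR adjusted p = 0.0376) and passed the study's thresholds.

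Among 12 tested genes of glutathione synthesis, import and cycling, 2 rose and 0 fell by the study's thresholds. This was 16.7%, beside 9.57% of all genes tested, and it rests on 2 genes. *Slc7a11*, the cystine importer that supplies cysteine for glutathione, had 43.9 and 40.6 CPM in Scrambled and 49.7 and 52.3 CPM in Itgb6-siRNA, a log2 difference of 0.27 (edgeR adjusted p = 0.0659). It no longer passed with GC and length trends removed (0.17), with library size only (0.26), without Scrambled replicate 3 (0.22) or without Itgb6-siRNA replicate 3 (0.24). *Glrx2*, a mitochondrial glutaredoxin, had 6.26 and 5.85 CPM against 7.82 and 8.20 CPM, a log2 difference of 0.40 (edgeR adjusted p = 0.266), and lost the call whichever of the 4 libraries was left out, at values of 0.36 to 0.45. *Slc3a2*, the partner chain of *Slc7a11*, had the highest level of this role at 161.5 FPKM and a log2 fold change of 0.0044, so the 2 chains of the importer had unlike estimates.

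Of 17 tested glutathione S-transferases, 1 rose (5.88%, beside 9.57% of all genes tested). *Gsta4*, which conjugates the lipid peroxidation product 4-hydroxynonenal, had 7.60 and 7.53 CPM in Scrambled and 8.53 and 11.1 CPM in Itgb6-siRNA, a log2 difference of 0.38 (edgeR adjusted p = 0.268). Itgb6-siRNA replicate 3 was the high library, and without it the value was 0.18 and the call was lost. The call was also lost, at values of 0.33 to 0.38, with DESeq2, with library size only, with the trends removed and without either Scrambled library. *Gsto1*, with the highest level of the family at 425.4 FPKM, had a log2 difference of -0.06 (edgeR adjusted p = 0.597). Several members of this family are near copies of each other, and the estimated counts of *Gsta1*, *Gsta2*, *Gstp1* and *Gstp2* were not whole in any of the 4 libraries, so that their values are uncertain.

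Of the 10 other thioredoxins and peroxiredoxins, 10% passed the study's thresholds, beside 9.57% of all genes tested: *Txnip*, which fell. It encodes the protein that binds and inhibits thioredoxin, and had 11.6 and 8.11 CPM in Scrambled and 8.14 and 5.77 CPM in Itgb6-siRNA. The groups overlapped, with Scrambled replicate 3 level with Itgb6-siRNA replicate 1. The log2 fold change was -0.50 (adjusted p = 0.161, edgeR), which became -0.22 without Scrambled replicate 2 and -0.27 without Itgb6-siRNA replicate 3, and neither value passed the thresholds. *Txn1*, the cytosolic thioredoxin, had 221.0 FPKM and a log2 difference of 0.03 (edgeR adjusted p = 0.796).

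None of the 6 NADPH-producing enzymes was called with edgeR or DESeq2. *Tkt*, a transketolase of the pentose phosphate pathway, had the highest level at 349.6 FPKM and a log2 fold change of -0.03. The groups did not overlap in 4 of the 6 genes, beside 49.2% of all genes tested, and 5 of the 6 estimates were above 0, beside 5869 of the 11727 genes tested.

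Of the 8 heme and iron genes, 12.5% passed the study's thresholds, beside 9.57% of all genes tested: *Slc40a1*, which rose. It encodes ferroportin, the iron exporter, and had 6.26 and 7.01 CPM in Scrambled and 9.69 and 9.29 CPM in Itgb6-siRNA, a log2 difference of 0.52 (edgeR adjusted p = 0.107). Without Scrambled replicate 2 it was 0.44 and did not pass. *Fth1*, the ferritin heavy chain, had 1968 FPKM, more than any of the 10 members, and a log2 difference of 0.03 (edgeR adjusted p = 0.800).

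Of 13 tested detoxification enzymes and exporters, 7.69% passed the study's thresholds, beside 9.57% of all genes tested: *Ptgr1*, which rose. It encodes a reductase of prostaglandins and lipid aldehydes and had 14.96 and 14.88 CPM in Scrambled and 16.9 and 21.8 CPM in Itgb6-siRNA, a log2 difference of 0.38 (edgeR adjusted p = 0.107). Without Itgb6-siRNA replicate 3 it was 0.18 and did not pass. *Akr1a1*, an aldehyde reductase with 446.0 FPKM, had a log2 fold change of 0.01.

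Of the superoxide dismutases and catalase, 0 of 3 tested genes were called with edgeR or DESeq2, and *Sod1*, at 405.8 FPKM, had a log2 fold change of 0.05. Of the 5 genes listed under lipid peroxidation defence beside *Gpx4*, 0 were called, and not all of them protect. *Acsl4*, which activates polyunsaturated fatty acids for use in phospholipids and so provides substrate for lipid peroxidation, had the highest level at 42.1 FPKM. A higher value of *Acsl4* is therefore not to be read as more defence. It had 190.5 and 195.2 CPM in Scrambled and 230.7 and 222.9 CPM in Itgb6-siRNA, both Itgb6-siRNA libraries above both Scrambled libraries. The log2 fold change was 0.23 with an interval from 0.12 to 0.35 (adjusted p = 0.0109, edgeR), under the fold threshold of 1.2. With GC and length trends removed it was 0.13 (adjusted p = 0.223, edgeR), past the adjusted threshold no longer. Without Scrambled replicate 2 or 3 the value stayed about as large, at 0.22 or 0.26, with an edgeR adjusted p of 0.364 or 0.0997.

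**Figure D5:**
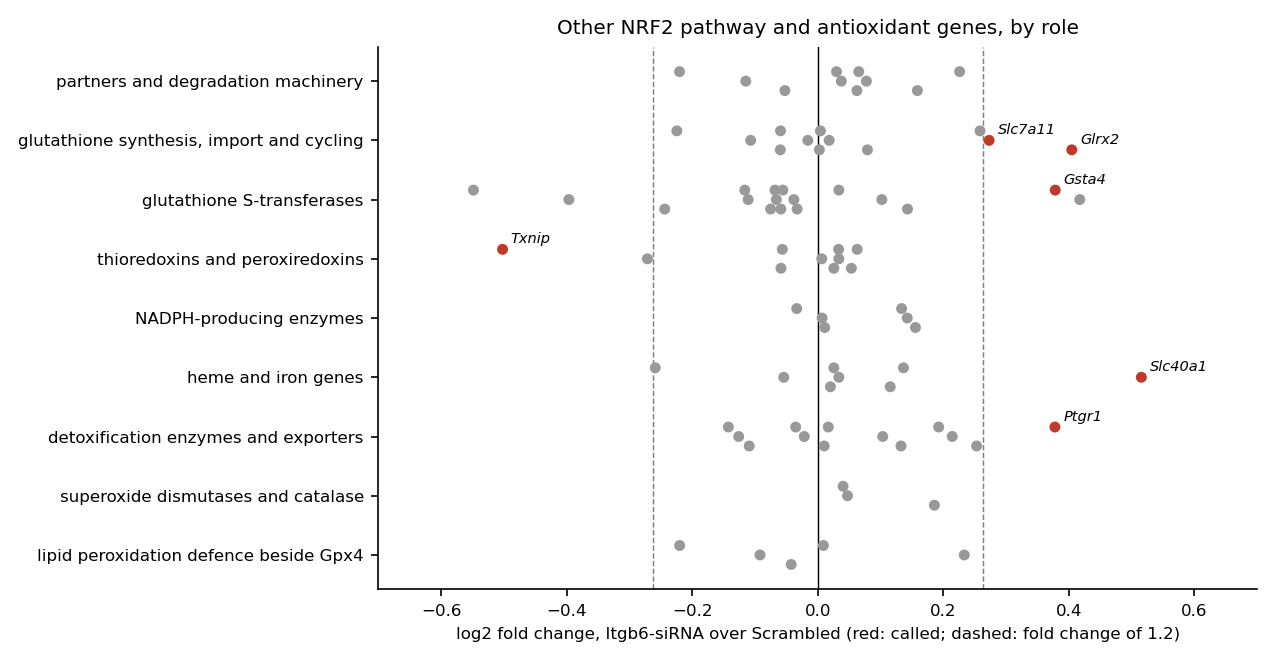
Log2 fold change, Itgb6-siRNA over Scrambled, of the 84 tested genes of the wider list, with 1 point per gene in a row for each role; red points with names passed the study's thresholds and dashed lines mark a fold change of 1.2. The 5 genes that rose by these thresholds and *Txnip*, which fell, are spread over 5 of the 9 roles, and most points lie between the dashed lines. These 6 genes are 7.14% of the 84, beside 9.57% of all genes tested.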

How the data were processed

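Paired-end RNA-sequencing of polyadenylated RNA without strand information gave 4 libraries, 2 per group. The authors deposited estimated counts per gene, not normalized, and FPKM values, which they scaled to length and depth; the aligner, counting tool, genome build and annotation are not given in the sources used here. The counts were rounded to whole numbers, kept where filterByExpr passed them (at minimum 10 counts, 15 in total), normalized by TMM and tested by quasi-likelihood in edgeR 4.0.16 (R 4.3.3). Adjusted p-values are Benjamini-Hochberg values over all 11727 genes that passed. Standard errors came from the log2 fold change and its F statistic, and intervals are at the 95% level, without adjustment. The thresholds (unadjusted p under 0.05, fold change over 1.2) and edgeR are those of the study's methods. FPKM values served to compare levels between genes and to sum the marker lists of each library, and no test used them. The fits were first tested on simulated counts. These had the same spread setting for every gene and no trend against GC content, unlike the data, so they do not show how the tests behave under such a trend.

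The members and lists were chosen with earlier results of these data known. The rule for named genes took *Itgb6*, the 10 members and, for each role of the wider list, the genes called and the gene with the highest mean FPKM. *Nfe2l1* was added after its values were seen. Alternatives were DESeq2 1.42.0, RLE factors, library size only, other filters, other thresholds, removal of GC and length trends (longest transcript of GENCODE vM21, found for 11709 genes tested, by lowess as offsets) and leaving out each library, where the lone library of a group is assumed to vary like those of the other group. Promoter windows are those of RefSeq (GRCm38.p6).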

Additional observations from a re-analysis of the deposited data

How the results depend on the processing

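With 2 libraries per group each library weighs on every value, and depth limits the 4 members with 83 to 365 counts per library, whose intervals reached past a fold change of 1.2. No paired analysis was possible because the groups share 1 replicate number. Over all genes tested, the numbers called were 383 lower and 320 higher with DESeq2, 295 and 247 at an adjusted p under 0.05, 110 and 125 at a fold change over 1.5, and 402 to 768 lower and 338 to 645 higher with 1 library left out. The number of members called lower was 0 under every alternative run. The number called higher was 1, except 0 at a fold change over 1.5, 0 with GC and length trends removed and 0 to 1 with 1 library left out (0 without Scrambled replicate 2). Of the wider list, 3 were higher and 0 lower with DESeq2, 2 and 2 with library size only, 1 and 1 at an adjusted p under 0.05, 0 and 0 at a fold change over 1.5, 4 and 2 with the trends removed, and 3 to 5 higher and 0 to 4 lower with 1 library left out.

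*Nfe2l2* had 0.26 with the trends removed and 0.22 to 0.38 with 1 library left out, and its adjusted p ranged from 0.0159 to 0.506 over the alternatives, above 0.05 also with DESeq2 (0.0700) and library size only (0.0554). With 1 library left out, *Itgb6* ranged from -0.10 to 0.091, *Gclc* from -0.11 to 0.13, *Nqo1* from -0.050 to 0.24, *Srxn1* from -0.19 to 0.12, *Hmox1* from -0.0005 to 0.0075, *Akr1a1* from -0.038 to 0.058, *Fth1* from -0.0030 to 0.056, *Slc3a2* from -0.021 to 0.033 and *Txn1* from -0.0008 to 0.072, each with a change of sign. With library size only, the sign turned for *Hmox1* (-0.012), *Akr1a1* (-0.0044) and *Slc3a2* (-0.010). With the trends removed it turned for *Gclm* (-0.048), *Srxn1* (0.0082), *Akr1a1* (-0.022), *Tkt* (0.032) and *Txn1* (-0.030). No gene whose sign turned passed the thresholds where it did so. The cause was not tested.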
